A study of Mus musculus with 12 samples.

Results

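The genes described here encode the NHERF scaffolds and the ERM linkers, which together tie membrane proteins to the actin cortex. The 6 members are Slc9a3r1, Slc9a3r2, Pdzk1, Ezr, Rdx and Msn, out of 54232 gene identifiers listed for each library, and all 6 were found by their symbols and passed the filter on low counts. The family was selected on the values of Slc9a3r1, which had stood out in an earlier comparison of no strain with TD in these libraries. Its own levels and differences are therefore given as a description with no test. The other 5 members were added as its relatives and were tested by the fit across all 18618 genes that passed the filter.

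RNA was sequenced from dorsal wounds of male C57BLKS/J mice of the Lepr (db/db) genotype, aged 12.5 weeks. This leptin receptor mutation, which gives obesity and diabetes, was carried by all groups, so the comparisons are between dressings and not between diabetic and lean skin. Full-thickness punch wounds of 6 mm were sampled on day 10 under a Tegaderm film alone (TD, 5 libraries), under a patch made to induce about 30% strain (Strain, 4 libraries) or under a patch without strain (No Strain, 3 libraries). Separate mice are not named in the labels, so p-values measure only the spread between these libraries, which may be technical. Numbers in the titles are 1 to 6 for TD and 7 to 15 for both patches, and whatever order they stand for cannot be told apart from wearing a patch. The titles also end in a letter, such as L or R, whose meaning is not given and which served as a covariate in an alternative fit.

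NHERF proteins carry PDZ domains, which hold the tails of transporters and receptors. NHERF1, encoded by Slc9a3r1, and NHERF2, encoded by Slc9a3r2, also end in a segment that binds the ERM proteins, whereas PDZK1 lacks that segment. Ezrin, radixin and moesin bind membrane proteins and scaffolds through an amino-terminal FERM domain and F-actin through the carboxyl terminus, and they switch from a closed to an open form on binding PIP2 and on phosphorylation of a threonine near that terminus. Ezrin is the main ERM protein of many epithelia, and moesin that of leukocytes and endothelium.

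In GRCm38, the build named in the submitters' processing notes, Slc9a3r1 (ENSMUSG00000020733) lies on the plus strand at chr11:115163341-115181181 and Slc9a3r2 (ENSMUSG00000002504) on the minus strand at chr17:24639286-24650327. Ezr (ENSMUSG00000052397, chr17:6738041-6782784, minus), Rdx (ENSMUSG00000032050, chr9:52047173-52088735, plus), Msn (ENSMUSG00000031207, chrX:96096042-96168552, plus) and Pdzk1 (ENSMUSG00000038298, chr3:96829284-96870926, plus) make up the rest. Slc9a3r1, Slc9a3r2 and Rdx shared no exon sequence with another gene in GENCODE M21, Ezr shared 4 bases and Msn 136. Pdzk1 has 3556 exon bases, and its overlaps with Cd160, Gpr89 and 4930442L01Rik, all on the opposite strand, summed to 1482 bases. A base shared with more than 1 of these genes was counted for each. The strand setting of the counting is not given in the sources used here, so reads from Pdzk1 and those genes may not be told apart.

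The 250 bases before the RefSeq start (GRCm38.p6) are shown for Slc9a3r1, Msn and Rdx, with the Slc9a3r1 paralog and Ezr for contrast. Pdzk1, which also lay apart from TD without strain, is not shown. Windows are chr11:115163091-115163340 for Slc9a3r1, chr17:24650306-24650555 for the first of 2 Slc9a3r2 starts, chrX:96095795-96096044 for Msn, chr17:6782781-6783030 for Ezr and chr9:52046900-52047149 for the first of 2 Rdx starts. Each is written 5′ to 3′ on the gene's strand, with capitals for the CCAAT box, the Sp1-type GC box GGGCGG and the AP-1 motif TGACTCA, each on either strand with overlapping matches counted.
Slc9a3r1: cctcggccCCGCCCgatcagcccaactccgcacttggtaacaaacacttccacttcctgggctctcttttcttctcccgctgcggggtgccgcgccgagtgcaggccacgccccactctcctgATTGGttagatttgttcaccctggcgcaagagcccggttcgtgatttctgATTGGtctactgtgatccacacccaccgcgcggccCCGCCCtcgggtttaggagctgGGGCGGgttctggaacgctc
Slc9a3r2: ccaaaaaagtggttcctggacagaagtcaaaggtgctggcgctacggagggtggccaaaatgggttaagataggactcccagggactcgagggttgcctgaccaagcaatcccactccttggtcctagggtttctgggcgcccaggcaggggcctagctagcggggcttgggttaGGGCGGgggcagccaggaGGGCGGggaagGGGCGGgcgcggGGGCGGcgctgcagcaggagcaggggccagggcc
Msn: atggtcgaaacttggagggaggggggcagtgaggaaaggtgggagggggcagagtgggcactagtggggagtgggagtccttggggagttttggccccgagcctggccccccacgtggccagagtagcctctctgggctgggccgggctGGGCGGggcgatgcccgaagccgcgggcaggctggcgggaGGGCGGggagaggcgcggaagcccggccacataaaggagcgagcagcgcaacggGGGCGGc
Ezr: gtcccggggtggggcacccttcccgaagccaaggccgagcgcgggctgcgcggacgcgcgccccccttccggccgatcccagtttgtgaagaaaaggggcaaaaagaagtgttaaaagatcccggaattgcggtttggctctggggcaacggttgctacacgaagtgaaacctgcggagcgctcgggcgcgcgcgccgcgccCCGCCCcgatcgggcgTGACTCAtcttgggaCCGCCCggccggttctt
Rdx: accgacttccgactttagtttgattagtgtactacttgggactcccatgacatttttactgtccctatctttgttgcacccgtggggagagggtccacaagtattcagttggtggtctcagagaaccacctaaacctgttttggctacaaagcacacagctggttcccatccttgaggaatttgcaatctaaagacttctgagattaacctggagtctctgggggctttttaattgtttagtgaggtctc

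The Slc9a3r1 window held 2 CCAAT matches, 122 and 72 bases before the start, and 3 GGGCGG matches. The Slc9a3r2 window shown held 0 CCAAT and 4 GGGCGG matches, that of Msn 0 and 3, that of Ezr 0 and 2, and the Rdx window shown 0 of either. Over 32851 promoter windows of this length, 33.9% held CCAAT at least once and 10.1% at least 2 times, and 32.7% held GGGCGG at least once and 8.47% at least 3 times. TGACTCA was found in 4.46% of all windows and lay 25 bases before the Ezr start. Of the other motifs searched, TATAAA, the TEAD motif GGAATG and the STAT motif (7.02% of windows) had 0 matches in these windows, and the E-box CACGTG had 1, in Msn (6.02% of windows). These are letter matches in a window, and no binding was measured. GC content was 62.8% for Slc9a3r1, 71.6% for Msn, 67.2% for Ezr and 45.2% for the Rdx window shown, against a median of 52.4% over all windows.

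Library totals ran from 20354677 to 25059371 counts, and levels are given as CPM, counts scaled to a common library size after TMM adjustment. Marker lists of wounded skin were present throughout, with 0 of 10 genes per list at 0 in all libraries. Several of these lists moved with the groups. Genes of adipocytes were lower in both patch groups than in TD (7 of 10 past the threshold under strain, 10 of 10 without strain). Of 9 skeletal muscle genes tested, 5 were lower under strain and 2 without strain, the latter near the 17.8% of all genes called, and muscle sums without strain overlapped TD. Neutrophil genes were higher (8 and 7 of 10), as were those of endothelium (6 and 6 of 10) and T cells (5 and 5 of 10). Over all genes, 12.6% passed under strain and 17.8% without strain, in either direction. Fibroblast sums overlapped between groups, at 46130 to 71600, 46910 to 80590 and 59500 to 76730 CPM. Pdgfra and Thy1 each stand on more than 1 list. In whole-wound RNA, a change in the number of cells of a type and a change in RNA per cell cannot be told apart.

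Slc9a3r1, on which the family was chosen, had higher levels in both patch groups. Its level was 55.4, 60.8, 56.1, 55.0 and 59.0 CPM in the TD libraries. Under the strain patch it was 82.2, 88.2, 78.8 and 79.4 CPM, and under the patch without strain 96.8, 84.4 and 98.1 CPM. All 7 patch libraries lay above all 5 TD libraries, and between the patch groups Strain replicate 2 overlapped the No Strain range. Means were 57.3 ± 2.53 CPM (SD, n = 5) in TD, 82.2 ± 4.30 (SD, n = 4) in Strain and 93.1 ± 7.56 (SD, n = 3) in No Strain. The fitted log2 fold change under the strain patch was 0.52 (standard error 0.0604) relative to TD. It was 0.70 (0.0649) under the other patch, and strain differed from no strain by -0.18 (0.0687). Both comparisons with TD share the TD libraries. Mean neutrophil sums were also higher in both patch groups. They spanned 512 to 1711 CPM in TD, 949 to 8775 in Strain and 2229 to 5255 in No Strain. In Strain replicates 3 and 4 they were 949 and 1591 CPM, inside the TD range, whose upper end was TD replicate 1 alone. TD replicates 2 to 5 had 670, 512, 605 and 638 CPM. Mean endothelial sums, given with Msn, were higher as well, and mean adipocyte sums, given with Rdx, were lower. The part of these cells in the Slc9a3r1 values was not tested.

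**Figure D1:**
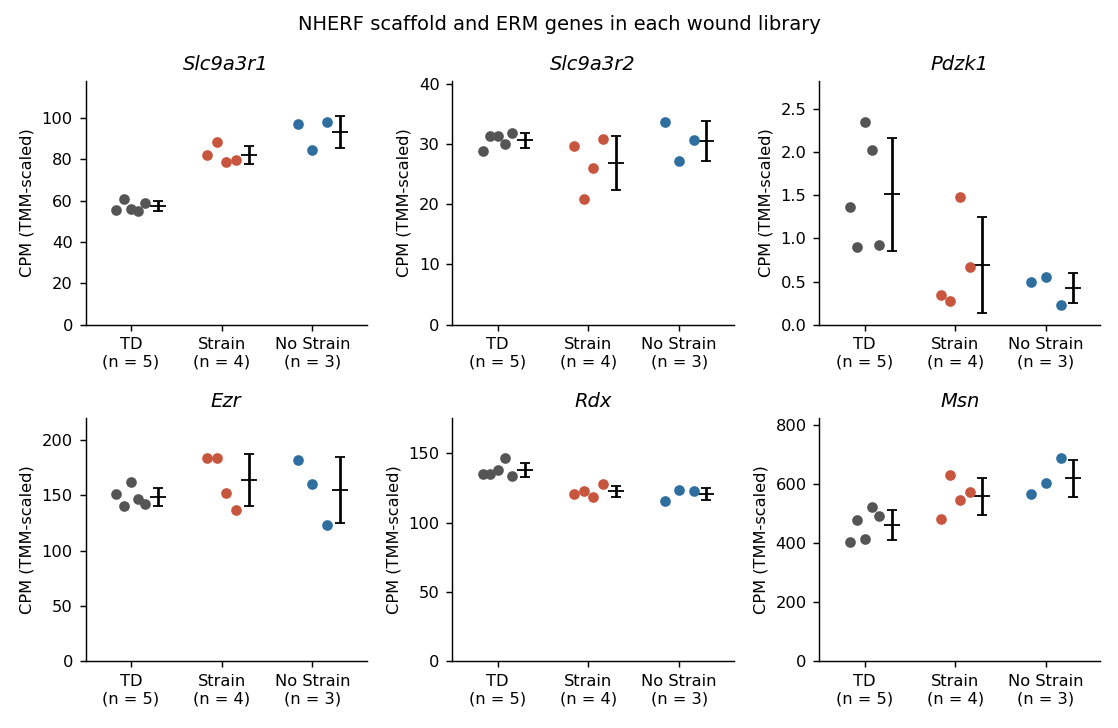
Levels of the 6 members in each library, in TMM-scaled CPM on linear axes from 0; points are libraries of TD (grey), Strain (red) and No Strain (blue), and black marks show the mean ± SD. Slc9a3r1 lies between 55.0 and 60.8 CPM in TD and between 78.8 and 98.1 CPM in the patch groups, while Slc9a3r2 and Ezr overlap across all 3 groups.

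Slc9a3r2, the paralog, overlapped between all groups. It had 28.8, 31.4, 31.3, 30.0 and 31.8 CPM in TD, 29.6, 20.9, 26.0 and 30.8 CPM in Strain, and 33.7, 27.2 and 30.6 CPM in No Strain. The lowest library was Strain replicate 2, which had the highest Slc9a3r1 level of that group. The log2 fold change was -0.19 for strain against TD (95% interval -0.42 to 0.04, edgeR quasi-likelihood adjusted p = 0.249) and -0.01 for no strain against TD (-0.26 to 0.24, edgeR adjusted p = 0.974).

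Pdzk1 encodes a scaffold of PDZ domains known from kidney and liver, and it was scarce in these wounds. TD libraries held 21 to 59 counts, Strain libraries 6 to 38 and No Strain libraries 5 to 13. The levels were 1.36, 0.904, 2.35, 2.02 and 0.921 CPM in TD, 0.348, 0.270, 1.48 and 0.671 CPM in Strain, and 0.495, 0.558 and 0.232 CPM in No Strain. No Strain libraries lay below all TD libraries, while Strain replicate 3 lay inside the TD range. Its difference did not pass in either comparison: the log2 fold change was -1.09 (standard error 0.485, edgeR adjusted p = 0.157) for strain and -1.80 (0.575, edgeR adjusted p = 0.0505) for no strain. With DESeq2 (adjusted p = 0.0135), library totals alone (0.0482) or only the groups compared in the edgeR fit (0.0272), it passed for no strain. Without Strain replicate 3 it passed for both, at -1.82 (edgeR adjusted p = 0.0282) and -1.80 (0.0231). Without TD replicate 5, Strain replicate 1 or Strain replicate 2 it passed for no strain, with adjusted p from 0.0397 to 0.0493.

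Of the genes that share Pdzk1 exon sequence, Gpr89 had 17.0 ± 1.08 CPM (SD, n = 5) in TD and 16.1 ± 0.0977 (SD, n = 3) in No Strain. Cd160 was 1.31 ± 0.184 CPM (SD, n = 5) and 2.25 ± 0.0585 (SD, n = 3), in the direction opposite to Pdzk1. Adipocyte sums were 1261 to 2924 CPM in TD and 681 to 971 CPM in No Strain, and muscle sums 5930 to 14600 and 3907 to 8585 CPM. With the mean of the muscle list as a covariate, the Pdzk1 difference of strain against TD turned to 0.26 (standard error 0.809, edgeR adjusted p = 0.943). That of no strain turned to -0.93 (standard error 0.673, edgeR adjusted p = 0.442). Muscle sums in Strain, 2714 to 5198 CPM, lay below all TD sums, so covariate and dressing cannot be told apart there. The part of these tissues in the Pdzk1 values was not tested.

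Among the ERM genes, Msn rose without strain, Rdx fell under both patches and Ezr did not pass in any comparison. For strain against TD, 1 of the 5 tested members passed an edgeR adjusted p of 0.05 (Rdx, lower), where 12.6% of all genes passed. For no strain against TD, 2 of 5 passed (Msn higher, Rdx lower), where 17.8% of all genes did. With so few members these counts say little against the background, and the values of each gene are given instead.

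Msn, the moesin gene, had 404, 479, 414, 524 and 490 CPM in TD, 483, 631, 544 and 574 CPM in Strain, and 565, 605 and 687 CPM in No Strain. All No Strain libraries lay above TD, while Strain replicate 1 lay inside the TD range. Means were 462 ± 51.4 CPM (SD, n = 5), 558 ± 62.0 (SD, n = 4) and 619 ± 62.3 (SD, n = 3). On the log2 scale, no strain exceeded TD by 0.42 (standard error 0.114, edgeR adjusted p = 0.0272), and strain by 0.27 (0.105, edgeR adjusted p = 0.110). The call for no strain was lost without TD replicate 1, 2 or 3 or without No Strain replicate 2 or 3, where the edgeR adjusted p lay above 0.05 and reached 0.121. It was also lost with the title letter (0.0623) or the muscle list (0.148) as a covariate. In these fits the log2 fold change was 0.34 to 0.43, so the difference kept most of its size.

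Mean marker sums of moesin-rich cell types were higher in both patch groups, as was mean Msn. Macrophage sums overlapped TD in both patch groups, and T cell sums and the neutrophil sums given with Slc9a3r1 overlapped TD under strain. In each group the highest neutrophil sum was in replicate 1 (1711, 8775 and 5255 CPM in TD, Strain and No Strain), which had the lowest Msn. Macrophage sums followed the order of Msn in Strain but not in No Strain. T cell and endothelial sums followed it in neither patch group. Endothelial sums spanned 514 to 641 CPM in TD, 641 to 919 in Strain and 709 to 823 in No Strain. In the same order, T cell sums spanned 212 to 319, 310 to 452 and 337 to 412 CPM, and macrophage sums 2334 to 5207, 4454 to 7439 and 4804 to 7619 CPM. In the macrophage list 1 of 10 genes passed in each comparison with TD, where 12.6% (strain) and 17.8% (no strain) of all genes passed. The part of these cells in the Msn difference was not tested.

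Rdx, the radixin gene, changed by little and had the smallest spread within groups of the 6 members. It had 135, 135, 138, 146 and 134 CPM in TD, 121, 123, 119 and 128 CPM in Strain, and 115, 124 and 123 CPM in No Strain. All patch libraries lay below all TD libraries. Means were 138 ± 5.12 CPM (SD, n = 5), 123 ± 4.06 (SD, n = 4) and 121 ± 4.64 (SD, n = 3), so the patch groups were 11.0% and 12.4% below TD. The fitted difference from TD was -0.17 on the log2 scale (standard error 0.0494, edgeR adjusted p = 0.0460) for strain and -0.19 (0.0540, edgeR adjusted p = 0.0326) for no strain. The SD of log2 CPM within groups was 0.0517, against a median of 0.125 over 3041 genes within 2-fold of its level, and 3.91% of those genes varied less. Mean adipocyte sums were lower in both patch groups, as was mean Rdx. They spanned 1261 to 2924 CPM in TD, 893 to 1355 in Strain and 681 to 971 in No Strain. Within Strain these sums ran in the reverse order of Rdx, at 1098, 979, 1355 and 893 CPM in replicates 1 to 4. In No Strain the highest sum was in replicate 1, which had the lowest Rdx. In TD replicate 5 was lowest in both. The part of adipocytes in the Rdx difference was not tested.

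The Rdx calls lay close to the threshold, while the size of the difference moved little. For strain against TD the call was kept by edgeR without No Strain replicate 1 or without Strain replicate 4, and lost without any 1 of the other 10 libraries, with adjusted p from 0.0512 to 0.0992 and log2 fold changes from -0.18 to -0.15. For no strain against TD it was lost without TD replicate 2, 3 or 4 or without any 1 of the No Strain replicates, with adjusted p from 0.0512 to 0.124 and log2 fold changes from -0.21 to -0.16. Neither call was kept with the muscle list as a covariate (adjusted p = 0.605 and 0.145), where the log2 fold changes were -0.17 and -0.19 with standard errors of 0.0993 and 0.0728. The strain call was also lost with limma-voom (0.0545) or the title letter (0.0869), and both were lost without the low-count filter (0.136 and 0.109) and with only the groups compared in the fit (0.0678 and 0.0534).

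Ezr, the ezrin gene, varied more among wounds under the same patch than between the group means. It had 151, 141, 162, 147 and 142 CPM in TD, 183, 183, 152 and 137 CPM in Strain, and 182, 160 and 123 CPM in No Strain. Both patch groups reached above and below the TD range. The log2 fold change was 0.14 for strain against TD (95% interval -0.12 to 0.40, edgeR adjusted p = 0.456) and 0.06 for no strain against TD (-0.22 to 0.34, edgeR adjusted p = 0.770). Keratinocyte genes also varied among the patch wounds. In Strain libraries 1 to 4 the basal and wound sums were 21140, 14840, 10770 and 7836 CPM and the differentiated sums 6841, 6997, 9198 and 6964 CPM. In No Strain libraries 1 to 3 they were 19150, 8855 and 9452 CPM and 10620, 7077 and 2166 CPM. Basal and wound sums followed the order of Ezr in Strain, apart from the libraries level at 183 CPM, but not in No Strain. Differentiated sums followed the order of Ezr in No Strain but not in Strain. Neither list followed that order in both patch groups. The part of epidermis in the Ezr values was not tested.

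**Figure D2:**
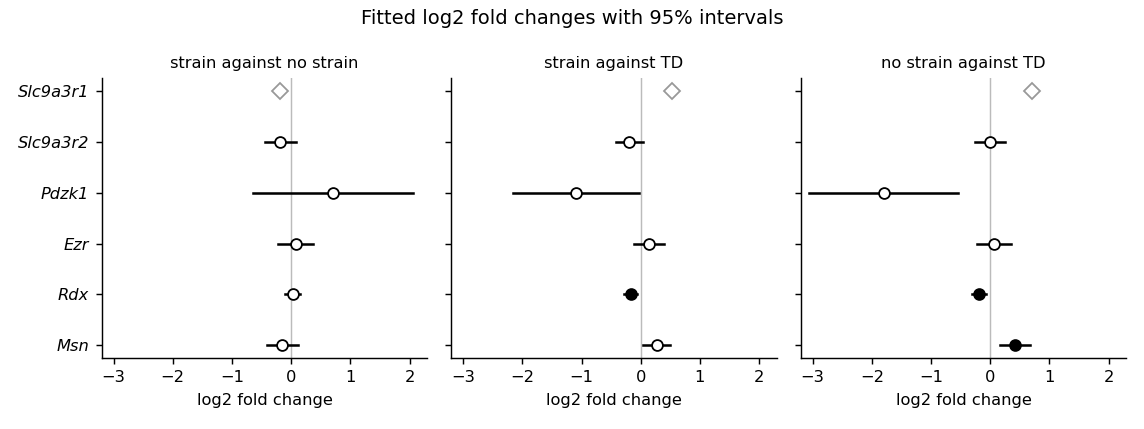
Fitted log2 fold changes of the members in the 3 comparisons, with 95% intervals as bars; filled circles passed an edgeR adjusted p of 0.05, open circles did not, and the grey diamond is Slc9a3r1, shown with no test. Rdx is filled at -0.17 and -0.19 against TD, Msn at 0.42 without strain, and no circle is filled between the patch groups.

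Between the patches, the effect of the imposed strain itself was compared. Of the 5 tested members, 0 passed in the edgeR test, where 0% of all genes passed. None of the 5 had an unadjusted p under 0.05 by edgeR (the count is 0), and DESeq2 called 0 of them and 29 genes in all. The 95% intervals of the log2 fold change were -0.45 to 0.08 for Slc9a3r2, -0.22 to 0.37 for Ezr, -0.10 to 0.15 for Rdx and -0.41 to 0.11 for Msn. That of Pdzk1 was wide, -0.64 to 2.06.

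Levels of different genes were compared as CPM per kilobase of exon. In TD the order was Msn at 73.1 ± 8.13 (SD, n = 5), Ezr at 45.1 ± 2.58, Slc9a3r1 at 29.8 ± 1.31, Rdx at 29.7 ± 1.10, Slc9a3r2 at 11.6 ± 0.471 and Pdzk1 at 0.425 ± 0.184. Slc9a3r1 and Rdx did not differ beyond their spread there. With the longest coding transcript as the length, Msn stood at 120.4 and Rdx, at 31.4, above Slc9a3r1, whose length was the same by both measures. In No Strain, Slc9a3r1 at 48.4 ± 3.93 (SD, n = 3) stood beside Ezr at 47.2 ± 9.05 and above Rdx at 26.0 ± 0.999. In Strain the same 3 genes had 42.7 ± 2.23 (SD, n = 4), 49.8 ± 7.13 and 26.4 ± 0.875 CPM per kilobase, in that order.

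**Figure D3:**
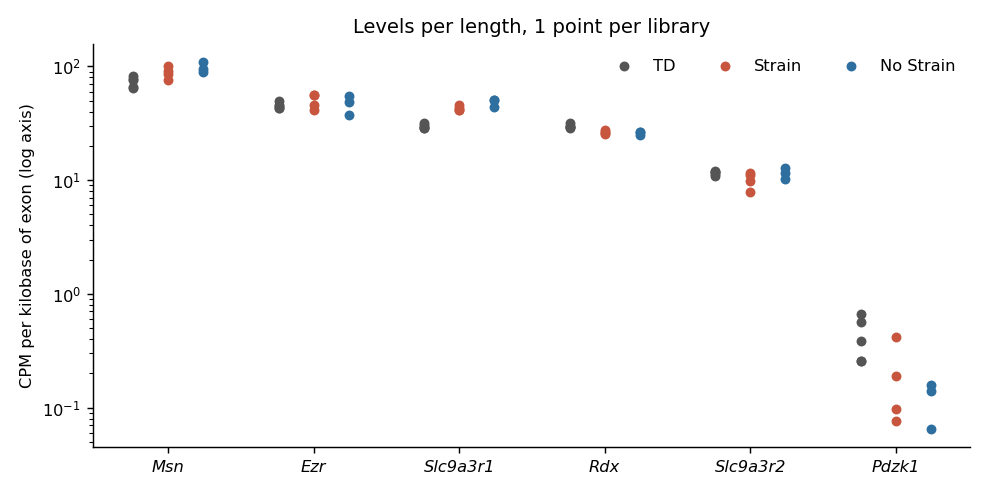
Level per length of each member on a log axis, in CPM per kilobase of exon; each point is a library of TD (grey), Strain (red) or No Strain (blue). Slc9a3r1 is level with Rdx in TD, at means of 29.8 and 29.7, and above it in both patch groups.

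The Rdx share and the NHERF ratio separated the TD wounds from the patch wounds. Rdx took 20.1% ± 0.681 (SD, n = 5) of the summed ERM level per length in TD, 16.1% ± 1.13 (SD, n = 4) in Strain and 15.2% ± 0.483 (SD, n = 3) in No Strain, with no overlap of TD (19.3% to 20.95%) and the patch libraries (14.6% to 17.3%). The Msn share was 49.3% ± 3.35, 53.6% ± 3.69 and 57.2% ± 5.25 in the same order of groups, with overlap. Slc9a3r1 stood to Slc9a3r2 in a ratio of 2.57 ± 0.0853 (SD, n = 5) for TD wounds, 4.33 ± 1.01 (SD, n = 4) in Strain and 4.21 ± 0.236 (SD, n = 3) in No Strain. Its highest TD value was 2.67 and its lowest patch value 3.55. The numerator of this ratio is Slc9a3r1, the gene on which the family was chosen, so its separation is no separate result. These shares and ratios combine members chosen together and carry no test. With the longest coding transcript as the length, the Rdx share was 15.9%, 12.5% and 11.6%, and the Msn share 60.4%, 64.5% and 67.7%.

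**Figure D4:**
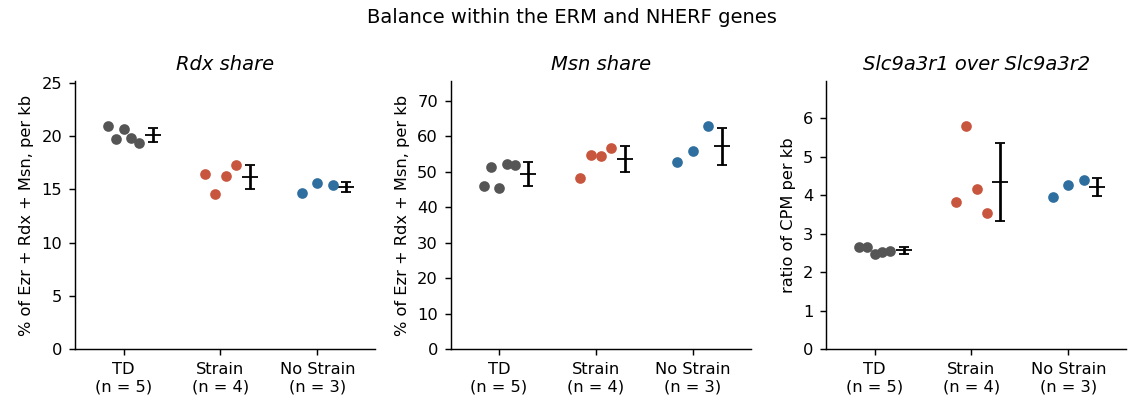
Shares of Rdx and Msn in the summed ERM level and the ratio of Slc9a3r1 to Slc9a3r2, all from CPM per kilobase; points are libraries and black marks the mean ± SD. TD libraries lie at 19.3% to 20.95% for Rdx and at 2.47 to 2.67 for the ratio, apart from all patch libraries in both panels. The ratio has Slc9a3r1, on which the family was chosen, as its numerator.

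Genes with the library pattern most like each of these members were ranked by the root-mean-square difference of log2 CPM, each gene centred on its mean over the 12 libraries. For Slc9a3r1, whose own root-mean-square deviation was 0.310, the nearest of 18617 genes were Tmem251 (0.0698), Cstb (0.0865) and Tmem268 (0.0915), against a median of 0.400. Cstb, which encodes the cathepsin inhibitor cystatin B, had 167 ± 9.41 CPM (SD, n = 5) in TD, 234 ± 37.2 (SD, n = 4) in Strain and 263 ± 25.2 (SD, n = 3) in No Strain. For Msn (0.223) they were Casp8 (0.0774), the gene of the apoptosis initiator caspase-8, Lgals8 (0.0780), which encodes galectin-8, and Psmd10 (0.0781). For Rdx (0.0987) they were Chmp7 (0.0352), a gene of the ESCRT machinery, Senp7 (0.0423), which encodes a SUMO protease, and Slc25a44 (0.0455). The ranking includes the difference between TD and the patch groups and describes these libraries only.

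Among 4 lists of related genes, the membrane proteins that ERM linkers hold had the most calls. Of 14 such genes tested, 7 rose under strain against TD (among them Cd44, Spn, Icam1, Icam2, Vcam1 and Podxl) and 0 fell. Without strain 6 rose (among them Spn, Icam1, Icam2, Vcam1 and Selplg) and 0 fell (over all genes, 12.6% and 17.8% passed in either direction). The median log2 fold change of the list was 0.44 and 0.52, against 0.02 and 0.005 over all genes. Vcam1, an adhesion receptor of activated endothelium, had 34.9 ± 6.16 CPM (SD, n = 5) in TD, 72.0 ± 18.0 (SD, n = 4) in Strain and 78.5 ± 8.27 (SD, n = 3) in No Strain. Its log2 fold changes were 1.05 and 1.17 (edgeR adjusted p = 0.00726 and 0.00357), with no overlap of TD and patch libraries.

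Spn, the gene of leukosialin on leukocytes, changed by 0.97 under strain (edgeR adjusted p = 0.0153) and Icam1, a ligand of leukocyte integrins, by 1.02 without strain (0.00615). Neutrophil, T cell and endothelial marker genes were higher in the same groups, and their part in this list was not tested.

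The regulators of ERM proteins moved little. Of 19 tested, 1 rose under strain and 2 rose and 1 fell without strain, with list medians of 0.05 and 0.04. These shares of 5.26% and 15.8% compare with 12.6% and 17.8% of all genes. Arhgdib, encoding the RhoGDI of blood cells, had 89.0 ± 12.0 CPM (SD, n = 5) in TD, 122 ± 19.6 (SD, n = 4) in Strain and 139 ± 16.5 (SD, n = 3) in No Strain, and passed in both comparisons (log2 fold changes 0.45 and 0.65, edgeR adjusted p = 0.0382 and 0.00988). Without strain, Ppp1ca, a catalytic subunit of protein phosphatase 1, rose by 0.22 (edgeR adjusted p = 0.0185) and Prkca, the gene of protein kinase C alpha, fell by 0.51 on the log2 scale (0.0412). The kinase genes Slk, Stk10, Rock1 and Rock2 did not pass in either comparison.

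Among other NHERF and FERM relatives the share called was near that of all genes. Of 12 tested, 2 fell in each comparison with TD and 0 rose (16.7%, against 12.6% and 17.8% of all genes), with medians of -0.10 and -0.12. Epb41l2, a membrane skeleton gene of the protein 4.1 family, had 195 ± 7.42 CPM (SD, n = 5) in TD, 162 ± 7.82 (SD, n = 4) in Strain and 152 ± 10.1 (SD, n = 3) in No Strain, with no overlap of TD and patch libraries. Its log2 fold changes were -0.26 and -0.36 (edgeR adjusted p = 0.0170 and 0.00511). Epb41l1 of the same family changed by -0.40 and -0.38 (edgeR adjusted p = 0.0207 and 0.0269).

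Of 19 tested genes whose products bind NHERF PDZ domains, 0 passed under strain against TD by edgeR (5 at an unadjusted p under 0.05, and 1 called by DESeq2). Without strain, Pag1, a lipid raft adaptor gene, and Abcc2, an organic anion exporter gene, rose, and Slc9a3, P2ry1 and Plcb3 fell. Over all genes 12.6% and 17.8% passed in these comparisons, against 0% and 26.3% of the list. Slc9a3 encodes NHE3, the sodium-proton exchanger from which the NHERF family takes its name. It was scarce, at 1.30 ± 0.518 CPM (SD, n = 5) in TD, 0.660 ± 0.289 (SD, n = 4) in Strain and 0.326 ± 0.0988 (SD, n = 3) in No Strain, with a log2 fold change of -1.98 for no strain against TD (edgeR adjusted p = 0.0169). Pag1 went from 13.9 ± 1.24 CPM (SD, n = 5) to 21.9 ± 2.35 (SD, n = 3), a log2 fold change of 0.66 (edgeR adjusted p = 0.0110). P2ry1, a purine receptor gene, went from 12.9 ± 2.76 CPM (SD, n = 5) to 6.45 ± 1.32 (SD, n = 3), and Abcc2 from 0.701 ± 0.422 (SD, n = 5) to 2.43 ± 0.287 (SD, n = 3). Plcb3, encoding a phospholipase C, went from 118 ± 5.46 CPM (SD, n = 5) to 96.9 ± 7.11 (SD, n = 3), a change of -0.28 (0.0238). Between the patches, 0 of the 64 tested genes of these lists passed by edgeR, 3 had an unadjusted p under 0.05, and DESeq2 called 0.

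**Figure D5:**
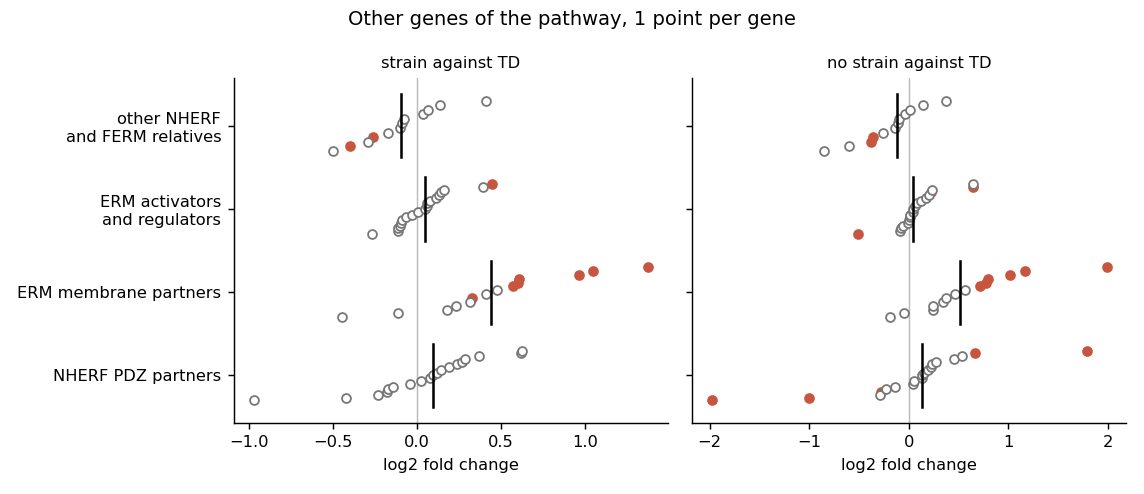
Log2 fold changes of the 4 lists of related genes against TD, 1 point per gene; filled points passed an edgeR adjusted p of 0.05 and black bars are list medians. The ERM membrane partners have 7 and 6 filled points, all above 0, with medians of 0.44 and 0.52.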

How the data were processed

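Each of the 12 deposited files lists raw counts by gene for a single library, as the values show (whole numbers with differing totals). The submitters' processing notes name bcl2fastq 2.17, FastQC, cutadapt, STAR, featureCounts and DESeq2 with the build GRCm38. The annotation release, strand setting and rule for multiply mapped reads are not given in the sources used here. Groups came from the group label. Of 54232 identifiers, 54165 matched a symbol in GENCODE M21, which also gave exon lengths. Promoters came from RefSeq (GRCm38.p6).

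Genes were kept by filterByExpr of edgeR 4.0.16 (minimum count 10, minimum total 15). The quasi-likelihood test of edgeR (robust, TMM scaling, R 4.3.3) was fitted to the 3 groups together, with Benjamini-Hochberg adjustment over 18618 genes. CPM use TMM-scaled totals, and log2 CPM add a prior count of 2. The fit was tested on simulated data. Libraries of a group differed beyond sampling noise in all 19 pairs (chi-square over its degrees of freedom 9.53 to 75.0), so none was counted as a duplicate. At these depths 3 counts equal at most 0.147 CPM, a limit for counting error only.

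Members, lists and alternatives were chosen with earlier results of these data known. From each list, up to 3 higher and 3 lower genes of smallest p past the threshold were named, and other names within the lists were added after their values were seen. The values of 1 gene among the ERM membrane partners are not reported here. Alternatives were limma 3.58.1 (voom with quality weights), DESeq2 1.42.0, other scalings, filters, covariates and group choices, another length, and leaving out each library.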

Additional observations from a re-analysis of the deposited data

How the results depend on the processing

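Between the patches, 0 of the 5 tested members passed under each of 21 alternatives. For strain against TD the count of 1 became 0 with limma-voom, without a filter on low counts, with only the 2 groups compared, and with the title letter or the muscle list as a covariate, and it ran from 0 to 1 when each library in turn was left out. The 1 without Strain replicate 3 was Pdzk1, not Rdx. For no strain against TD the count of 2 became 1 without a filter, 1 with the title letter, 0 with the muscle list and 3 with DESeq2 or library totals alone, where Pdzk1 was added, and ran from 0 to 3 when libraries were left out. The muscle list as a covariate left 1 call over all genes in the first of these comparisons and 695 in the second. The causes of these changes were not tested.

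Slc9a3r1 kept its direction under all 21 alternatives, from 0.48 to 0.55 under strain and from 0.64 to 0.76 without strain, both relative to TD. The family was chosen on this gene in these libraries, so refits of the same counts are no separate result for it. Signs turned only for differences that had not passed. Pdzk1 for strain against TD was 0.26 with the muscle list, Slc9a3r2 for no strain against TD was 0.033 with the title letter, and Ezr in that comparison was -0.001198 under library totals alone. With single libraries left out, Slc9a3r2 ran from -0.084 to 0.065 and Ezr from -0.065 to 0.20 for no strain against TD. Between the patches Pdzk1 ran from -0.017 to 0.97, Ezr from -0.064 to 0.20 and Rdx from -0.018 to 0.038. Pdzk1, mean under 5 CPM, has no value under that filter. No paired analysis was possible because the labels give no number shared between the groups.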

Other observations

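Of 16 group values screened for a library far from the rest of its group (levels of the 6 members, the Msn share and the ratio of Slc9a3r1 to Slc9a3r2, in TD and Strain), 0 stood apart, where chance gives about 0.8.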
